A study of Mus musculus with 36 samples.

Results

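A set of 32 genes of cholesterol synthesis and homeostasis was followed in whole mouse kidney, out of 53715 genes counted in each library. The members were chosen as a list of gene symbols, with no threshold on measured values but with earlier results of these data known, and all 32 were found and passed the filter on low counts that left 15637 genes for testing. They comprise 9 enzymes of the early steps from acetyl-CoA to squalene, 11 enzymes that turn squalene into cholesterol, 4 proteins of sterol sensing, 4 of intracellular transport and storage, and 4 of sterol efflux and its control.

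The study crossed 2 genotypes with 2 treatments, with 9 mice in each of 4 groups. All mice carried loxP-flanked (Bmal1 lox/lox) alleles of the clock gene Bmal1, whose gene symbol is Arntl. The cKOt mice also carried Pax8-rtTA and LC1, a doxycycline-driven Cre system of the renal tubule, while their littermate controls did not. Both genotypes drank doxycycline (DOX, 2 mg/ml) for 2 weeks from 8 weeks of age, and from 1 week later received streptozotocin (STZ, 50 mg/kg daily for 5 days), which destroys pancreatic beta cells and causes type 1 diabetes, or the vehicle PBS. The groups are called PBS-control and PBS-cKOt, and STZ-control and STZ-cKOt. Tissue was collected 8 weeks after injections ended, at zeitgeber time (ZT) 9, that is, 9 h after lights on. Because whole kidneys were used, vessels, glomeruli and immune cells that keep Bmal1 contribute to every value, and a lower value in bulk tissue cannot be told apart between fewer cells of a type and less RNA per cell.

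Cholesterol is built from acetyl-CoA through mevalonate, isoprenoids and squalene to lanosterol, which is then trimmed, reduced and isomerised to cholesterol. When membrane sterol falls, the escort protein SCAP carries the transcription factor SREBP2 (gene Srebf2) out of the endoplasmic reticulum, where INSIG proteins otherwise hold it, and SREBP2 switches on most genes of the pathway. Excess sterol is esterified, moved between membranes, or exported by ABC transporters under the oxysterol-sensing LXR receptors. BMAL1 binds E-boxes as a partner of CLOCK, and its loss changes many rhythmic transcripts at a given hour.

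Assigned reads ran from 16.9 to 22.3 M per library (median 20.1 M). Counts are given as counts per M reads on TMM-scaled library sizes (CPM). Arntl itself stood at 13.0 to 17.3 counts per M unscaled reads in PBS-cKOt and 1.05 to 2.22 in PBS-control. It was therefore higher, not lower, in knockouts; a count over the whole gene does not test for removal of the floxed part. Ciart, a direct target of BMAL1, lay between 1.14 and 3.54 in PBS-cKOt and between 12.3 and 20.9 in PBS-control. On these 2 genes the library labelled STZ-control 2 went against its label, with 13.3 of Arntl and 1.94 of Ciart. The other 8 STZ-control libraries held 1.20 to 2.63 and 18.01 to 29.0. On the first principal component it lay at −13.5, among the controls (−31.0 to −7.12) and apart from the cKOt libraries (9.12 to 29.2). Its Lbr (40.2 CPM), Dhcr7 (20.3 CPM), Sqle (76.2 CPM) and Hsd17b7 (26.9 CPM) were above every STZ-cKOt library. The highest of those held 30.9, 18.2, 70.7 and 22.3 CPM. Its Idi1 (9.97 CPM) was below every STZ-cKOt library (at least 11.4 CPM). Its Sc5d (58.4 CPM), Pmvk (10.7 CPM) and Soat1 (32.4 CPM) lay within the STZ-cKOt ranges. They were the lowest STZ-control value of Sc5d and the highest of Pmvk and Soat1. The cause of the mismatch in Arntl and Ciart was not tested. Libraries STZ-control 7 and 8 and PBS-cKOt 1 and 3 stood apart on the second principal component, and the 2 STZ-control libraries had the highest mitochondrial shares, 25.6% and 24.7%. The 8 proximal tubule markers, which define most of the kidney cortex, summed to between 7568 and 12424 CPM. In each treatment 3 of them passed as lower in knockouts and 0 as higher. The median log2 fold change of the 8 markers was −0.21 in PBS mice (−0.49 to 0.16) and 0.06 in STZ mice (−0.80 to 0.64). Median sums were 11405 CPM in PBS-control, 10630 in PBS-cKOt, 8887 in STZ-control and 8845 in STZ-cKOt for these markers. Their part in the results on the members was not tested. The adrenal gland, another cholesterol-using tissue next to the kidney, left little trace: its 9 markers summed to 3.67 to 7.70 CPM, and Cyp11b2 was at 0 in all 36 libraries.

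Promoter sequences were read for 26 of the 32 members from RefSeq (GRCm38.p6), in the 250 bases before each annotated start, to show which members carry clock or sterol motifs. No window was available for Fdps, Fdft1, Sqle, Stard4, Npc1 and Abcg1, so whether these carry any of the motifs is not known here. Motifs were searched on both strands as the E-box CACGTG, the sterol element TCACNCCAC, the D-box TTANGTAA, the REV-ERB/ROR element TAGGTCA and the CCAAT box CCAAT. The E-box was found at 6 members, Abca1, Dhcr7, Hsd17b7, Insig1, Sc5d and Scap, and at 6.86% of 27025 genes with such a window. CCAAT was found at 21 members and at 37.5% of genes. The sterol element was found only at Hmgcs1 (1.22% of genes), the REV-ERB/ROR element only at Dhcr7 (2.55%), and the D-box at 0 members (2.44%). A match is a description of the letters, not evidence that a factor binds there. The stretches below hold the sterol element of Hmgcs1 (chr13:119690101-119690350, + strand, element starting at position −137 from the RefSeq start) and the E-boxes of Hsd17b7 (chr1:169969242-169969408, − strand, at −143), Sc5d (chr9:42264301-42264550, − strand, at −98), Dhcr7 (chr7:143823223-143823252, + strand, at −164, inside an annotated exon) and Insig1 (chr5:28071162-28071362, + strand, at −101). They are written 5′ to 3′ on the gene's strand, and capitals mark the motif. These 5 genes are shown because each was lower in PBS-cKOt than in PBS-control, as described further on. The E-boxes of Abca1 and Scap, which did not pass in that comparison, are not shown, so the display says nothing on a link between motif and direction.
Hmgcs1: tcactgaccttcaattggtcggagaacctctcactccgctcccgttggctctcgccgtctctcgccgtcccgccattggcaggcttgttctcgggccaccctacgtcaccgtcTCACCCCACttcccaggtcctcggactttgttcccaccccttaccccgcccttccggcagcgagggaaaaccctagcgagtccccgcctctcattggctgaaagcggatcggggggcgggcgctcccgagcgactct
Hsd17b7: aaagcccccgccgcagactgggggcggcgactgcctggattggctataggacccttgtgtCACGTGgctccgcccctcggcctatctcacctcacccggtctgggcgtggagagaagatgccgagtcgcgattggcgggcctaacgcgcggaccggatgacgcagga
Sc5d: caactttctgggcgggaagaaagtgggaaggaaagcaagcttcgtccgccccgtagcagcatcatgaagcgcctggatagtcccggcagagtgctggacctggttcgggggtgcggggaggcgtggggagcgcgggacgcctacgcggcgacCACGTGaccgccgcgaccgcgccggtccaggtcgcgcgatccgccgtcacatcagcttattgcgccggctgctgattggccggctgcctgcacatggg
Dhcr7: cgctgtgatgaaCACGTGgcaaaaagcagc
Insig1: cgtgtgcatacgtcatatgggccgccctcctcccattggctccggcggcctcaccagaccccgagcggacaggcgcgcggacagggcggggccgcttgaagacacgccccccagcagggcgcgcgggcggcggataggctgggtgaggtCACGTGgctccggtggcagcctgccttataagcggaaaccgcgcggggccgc

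Levels per kb of exon in PBS-control kidneys spanned a wide range. Hmgcs1, which makes HMG-CoA, was highest, with a median of 160.0 CPM per kb (150.2 to 195.9). Cyp51, the lanosterol demethylase, followed at 69.2 (61.4 to 99.9), and Acat2, the thiolase that makes acetoacetyl-CoA, at 38.6 (32.1 to 45.1). The ranges of these 3 genes did not overlap. Ranges of most neighbours lower in the order did overlap, as between Ebp (26.7 to 37.4) and Nsdhl (22.4 to 29.7). The lowest were Abcg1 at 0.874 and Fdps, the farnesyl diphosphate synthase, at 0.195. Fdps had only 3 to 48 reads per library.

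**Figure D1:**
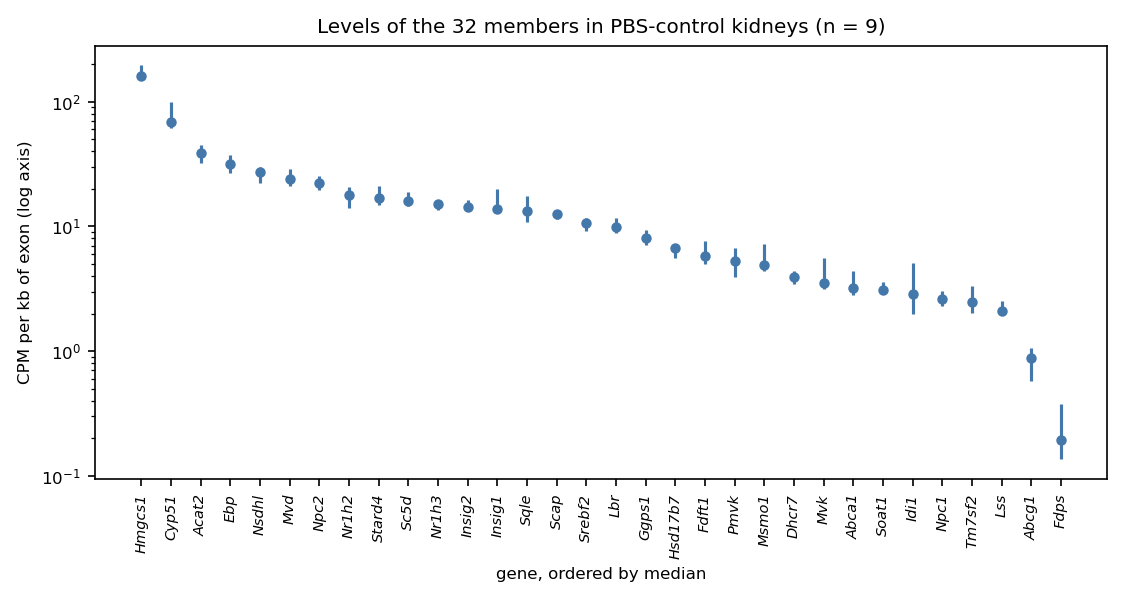
Level per kb of exon of each of the 32 members in the 9 PBS-control libraries, on a log axis; points are medians and lines run from the lowest to the highest library. Hmgcs1 lies highest at 160.0 CPM per kb and Fdps lowest at 0.195.

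Counting limits differ between members. Reads that mapped to more than 1 place (30.9% to 42.8% per library) were not assigned. Of the 50-base windows of each member's transcripts, the share also present in another gene was 39.1% for Acat2, 26.5% for Fdft1, 26.2% for Fdps, 25.3% for Idi1, 11.6% for Hmgcs1 and 8.41% for Lbr. It was also above 5% for Scap, Tm7sf2 and Ggps1. Such sharing makes the values of these genes less certain, by an amount that was not measured. Exons of other genes overlapped 12 members, with over 10% of exon bases for Hmgcs1 (Gm48342), Fdps (Gm43738), Fdft1 (Ctsb), Tm7sf2 (Vps51), Scap (5830462I19Rik) and Lbr (Dnah14 and Gm26004). The strand setting of the counting is not given in the sources used here, so reads of opposite-strand partners may not be told apart. Dhcr7, Sc5d, Sqle, Hsd17b7, Insig1, Stard4, Pmvk and Soat1 had 0 overlapping exon bases.

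The genotype comparison in PBS mice asked how loss of tubular BMAL1 changed these genes without diabetes. Of the 11 enzymes from squalene onward, 5 (Sqle, Lbr, Hsd17b7, Sc5d and Dhcr7) were lower in knockouts and the other 6 did not pass. The early enzymes Hmgcs1 and Acat2, the SCAP anchor Insig1 and the sterol carrier Stard4 were also lower, while Pmvk, Idi1 and the esterifying enzyme Soat1 were higher. Of the 32 members 12 differed (edgeR, adjusted p under 0.05), 3 higher and 9 lower. Over all 15637 genes 23.4% differed, 10.9% higher and 12.5% lower. The member median log2 fold change was −0.12, against 0.00 over all genes. The 2 groups' ranges did not overlap for 6 members, Sqle, Lbr, Sc5d, Dhcr7, Insig1 and Stard4, and for 5.12% of all genes.

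The same comparison in STZ mice, which shares no library with the first, gave 12 differing members, 4 higher and 8 lower. All-gene shares were 19.6%, with 9.52% higher and 10.1% lower. The member median was −0.02, against −0.01 for all genes. Ranges did not overlap for 3 members, Idi1, Lbr and Dhcr7, and for 3.5% of genes. In both genotype comparisons 8 members passed in the same direction, Sqle, Lbr, Hsd17b7, Sc5d and Dhcr7 lower and Pmvk, Idi1 and Soat1 higher, as did 11.4% of all genes.

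**Figure D2:**
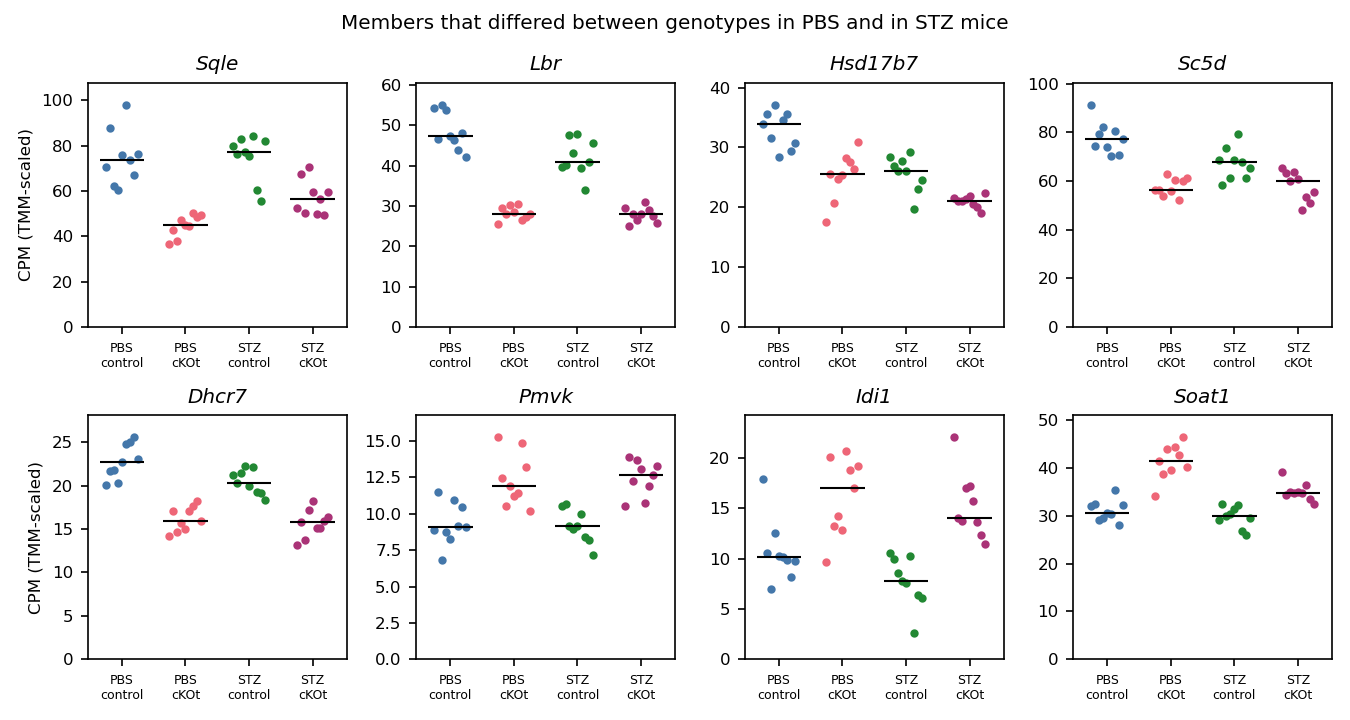
CPM of the 8 members that differed in the same direction between genotypes in PBS and in STZ mice; each point is a library (n = 9 per group), bars are medians and axes start at 0. Lbr and Dhcr7 separate the genotypes fully under both treatments, whereas Sqle separates fully in PBS mice only.

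Among the early enzymes the direction was mixed. Hmgcs1 was 690.2 to 899.8 CPM in PBS-control (median 735) and 482 to 702 in PBS-cKOt (median 592). In 8 of the 9 knockout libraries it lay below every control, and the difference was −0.36 ± 0.06 (log2 fold change ± SE, adjusted p = 4.41e-05). In STZ mice the medians were 631 (549 to 720.4) in controls and 610.1 (538 to 682) in knockouts, ranges that overlapped widely, with a difference of −0.06 ± 0.06 (adjusted p = 0.603). Acat2 followed the same order, with medians of 98.3 in PBS-control (81.8 to 114.6) and 78.3 in PBS-cKOt (67.0 to 92.1), a difference of −0.30 ± 0.07 (adjusted p = 0.0018). Its medians in STZ mice were 86.3 (68.7 to 96.2) and 78.2 (69.9 to 96.1), and there the ranges nearly coincided.

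Pmvk, the phosphomevalonate kinase, moved the other way. It was 6.79 to 11.5 CPM in PBS-control (median 9.05) and 10.2 to 15.2 in PBS-cKOt (median 11.9), a log2 difference of 0.40 ± 0.09 (adjusted p = 0.000875). In STZ-control it was 7.19 to 10.7 (median 9.13) and in STZ-cKOt 10.5 to 13.9 (median 12.7), a difference of 0.44 ± 0.09 (adjusted p = 0.000301). In both treatments all 9 knockout libraries lay above the control median. The ranges overlapped, with 5 of 9 knockout libraries above every control in PBS mice and 8 of 9 in STZ mice.

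Idi1, the isopentenyl diphosphate isomerase, had the largest rise of any member in both genotype comparisons. It was 6.95 to 17.9 CPM in PBS-control (median 10.1) and 9.65 to 20.7 in PBS-cKOt (median 17.0), 1.52-fold higher (log2 0.60 ± 0.17, adjusted p = 0.00958), with overlap. In STZ mice it went from 2.59 to 10.6 (median 7.81) in controls to 11.4 to 22.1 (median 14.1) in knockouts, 1.95-fold higher (log2 0.96 ± 0.18, adjusted p = 7.37e-05), with all knockouts above all controls. The lowest value was in STZ-control 7, one of the libraries that stood apart. Without those 4 libraries the differences were 0.73 and 0.82, still past the threshold.

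Mvd, the decarboxylase that makes isopentenyl diphosphate, was 39.0 to 53.2 CPM in PBS-control (median 44.8), 33.2 to 46.5 in PBS-cKOt (median 39.7), 30.4 to 53.0 in STZ-control (median 44.2) and 27.7 to 43.4 in STZ-cKOt (median 33.8). It fell with the knockout in STZ mice by 0.28 ± 0.09 (adjusted p = 0.0181), with overlapping ranges. Leaving out the 4 libraries that stood apart ended that call (−0.22, adjusted p = 0.0758). Mvk, Fdps, Ggps1, which makes geranylgeranyl diphosphate, and Fdft1, the squalene synthase, did not pass in either genotype comparison.

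The largest falls of any member in PBS mice were those of Lbr and Sqle, enzymes of the path from squalene onward. Sqle, the squalene epoxidase and a rate-limiting step, was 60.5 to 98.0 CPM in PBS-control (median 73.6) and 36.8 to 50.1 in PBS-cKOt (median 44.8). It was 1.67-fold lower (log2 −0.74 ± 0.09, adjusted p = 3.58e-08), with no overlap. Under STZ it was 55.4 to 84.3 in controls (median 77.3) and 49.2 to 70.7 in knockouts (median 56.4), 1.31-fold lower (−0.39 ± 0.09, adjusted p = 0.0014), and the ranges overlapped.

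Lbr encodes a sterol C14-reductase that is also the lamin B receptor of the inner nuclear membrane. It was 42.1 to 55.1 CPM in PBS-control (median 47.2) and 25.6 to 30.5 in PBS-cKOt (median 27.9), 1.72-fold lower (−0.79 ± 0.06, adjusted p = 2.68e-13). With STZ, Lbr was 33.9 to 47.8 (median 40.9) and 25.1 to 30.9 (median 27.9), 1.51-fold lower (−0.60 ± 0.06, adjusted p = 4.00e-10). It had the smallest adjusted p of the 32 members in both genotype comparisons, and all knockouts lay below all controls in each. Tm7sf2, which encodes the other enzyme of the same reduction, did not follow: its median was 10.9 CPM in PBS-control, 11.7 in PBS-cKOt, 10.9 in STZ-control and 12.6 in STZ-cKOt, with genotype differences of 0.10 ± 0.08 (adjusted p = 0.41) and 0.17 ± 0.08 (adjusted p = 0.135).

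Of Ebp, Sc5d and Dhcr7, which act in turn late in the pathway, Sc5d and Dhcr7 were lower in both treatments and Ebp did not pass (0.13 in PBS mice and 0.11 in STZ mice). Dhcr7, the final reductase, was 20.1 to 25.6 CPM in PBS-control (median 22.7) and 14.2 to 18.3 in PBS-cKOt (median 15.9), −0.49 ± 0.06 (adjusted p = 6.49e-08). The STZ groups held 18.3 to 22.3 (median 20.3) and 13.2 to 18.2 (median 15.8), −0.39 ± 0.06 (adjusted p = 8.39e-06). Neither pair of ranges overlapped.

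Sc5d, the desaturase just before Dhcr7, was 70.4 to 91.3 CPM in PBS-control (median 77.4) and 52.0 to 63.0 in PBS-cKOt (median 56.4), −0.43 ± 0.06 (adjusted p = 9.36e-07), without overlap. In STZ mice Sc5d was 58.4 to 79.4 (median 67.7) and 48.0 to 65.4 (median 60.1), −0.21 ± 0.06 (adjusted p = 0.0107), with overlap. All 9 STZ-cKOt libraries lay below the STZ-control median. Hsd17b7, a ketoreductase of the demethylation at carbon 4, was 28.3 to 37.2 CPM in PBS-control (median 33.9), 17.6 to 30.9 in PBS-cKOt (median 25.6), 19.8 to 29.3 in STZ-control (median 26.2) and 19.1 to 22.3 in STZ-cKOt (median 21.02). The genotype differences were −0.38 ± 0.08 (adjusted p = 0.000188) and −0.30 ± 0.08 (adjusted p = 0.00428), with overlap in both and the lowest PBS-cKOt value in library 1, which stood apart. Without the 4 libraries they were −0.28 and −0.36, both past the threshold.

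Nsdhl, a dehydrogenase of the same demethylation, was the 1 enzyme of the 11 from squalene onward that passed as higher, in STZ mice. It was 65.7 to 74.4 CPM in STZ-control (median 70.3) and 73.8 to 97.9 in STZ-cKOt (median 84.7), a rise of 0.26 ± 0.06 (adjusted p = 0.00282). In PBS mice the medians were 77.5 (63.9 to 84.9) and 77.0 (65.1 to 97.1), and the groups overlapped throughout. Cyp51, Lss, Msmo1 and Ebp, the lanosterol demethylase, lanosterol synthase, methyl sterol oxidase and sterol isomerase, did not pass in either genotype comparison.

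In sterol sensing a single gene differed between genotypes. Insig1, itself switched on by SREBP2, was 41.0 to 61.9 CPM in PBS-control (median 42.9) and 26.6 to 38.2 in PBS-cKOt (median 29.3), 1.53-fold lower (−0.61 ± 0.11, adjusted p = 6.02e-05), with no overlap. In STZ mice it was 30.01 to 62.8 (median 40.5) and 27.3 to 45.7 (median 38.6), −0.14 ± 0.11 (adjusted p = 0.414). Its relative Insig2 differed by −0.06 ± 0.04 (adjusted p = 0.341) and 0.10 ± 0.04 (adjusted p = 0.121). Srebf2 and Scap differed by at most 0.07 in either genotype comparison.

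Among transport and storage genes, Stard4, a soluble sterol carrier and SREBP2 target, was 82.2 to 117.5 CPM in PBS-control (median 94.0) and 51.2 to 79.4 in PBS-cKOt (median 69.6), −0.54 ± 0.10 (adjusted p = 7.44e-05), without overlap. Under STZ it was 62.7 to 113.8 (median 81.5) and 64.1 to 88.7 (median 76.1), −0.13 ± 0.10 (adjusted p = 0.412), and the knockout range lay within the control range. Soat1, which esterifies cholesterol for storage, was higher in knockouts. It was 28.1 to 35.3 CPM in PBS-control (median 30.5) and 34.1 to 46.4 in PBS-cKOt (median 41.3), 0.41 ± 0.05 (adjusted p = 1.28e-07). In STZ mice it was 26.0 to 32.4 (median 29.99) and 32.4 to 39.2 (median 34.8), 0.23 ± 0.05 (adjusted p = 0.00118). In each treatment 8 of 9 knockout libraries lay above every control. Npc1 and Npc2, which release cholesterol from lysosomes, did not pass.

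Of the 4 efflux and LXR genes, 2 passed in STZ mice, Abcg1 and Nr1h3. Abcg1, a sterol exporter, was 6.42 to 9.36 CPM in STZ-control (median 7.39) and 4.79 to 7.48 in STZ-cKOt (median 5.50), −0.42 ± 0.12 (adjusted p = 0.00816), and 8 of 9 knockout libraries lay below every control. Nr1h3, which encodes LXR alpha, was 32.9 to 47.8 (median 42.7) and 28.2 to 43.0 (median 32.9), −0.33 ± 0.07 (adjusted p = 0.00068). In PBS mice the medians were 6.38 (4.22 to 7.80) and 5.43 (3.69 to 7.93) for Abcg1 and 38.1 (34.1 to 40.6) and 38.5 (31.9 to 43.4) for Nr1h3, with −0.16 and −0.01 as differences. The exporter Abca1 and Nr1h2, which encodes LXR beta, did not pass (Nr1h2 in STZ mice −0.23 ± 0.08, adjusted p = 0.0558). Macrophages express Abcg1 and Nr1h3 strongly. The summed level of the 8 macrophage markers was 228 to 385 CPM in STZ-control and 193 to 230.2 in STZ-cKOt, and 6 of 8 markers were lower. In PBS mice it was 211 to 306 in controls and 172 to 228 in knockouts, and 3 of 8 were lower. The part of macrophages in the Abcg1 and Nr1h3 differences was not tested.

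**Figure D3:**
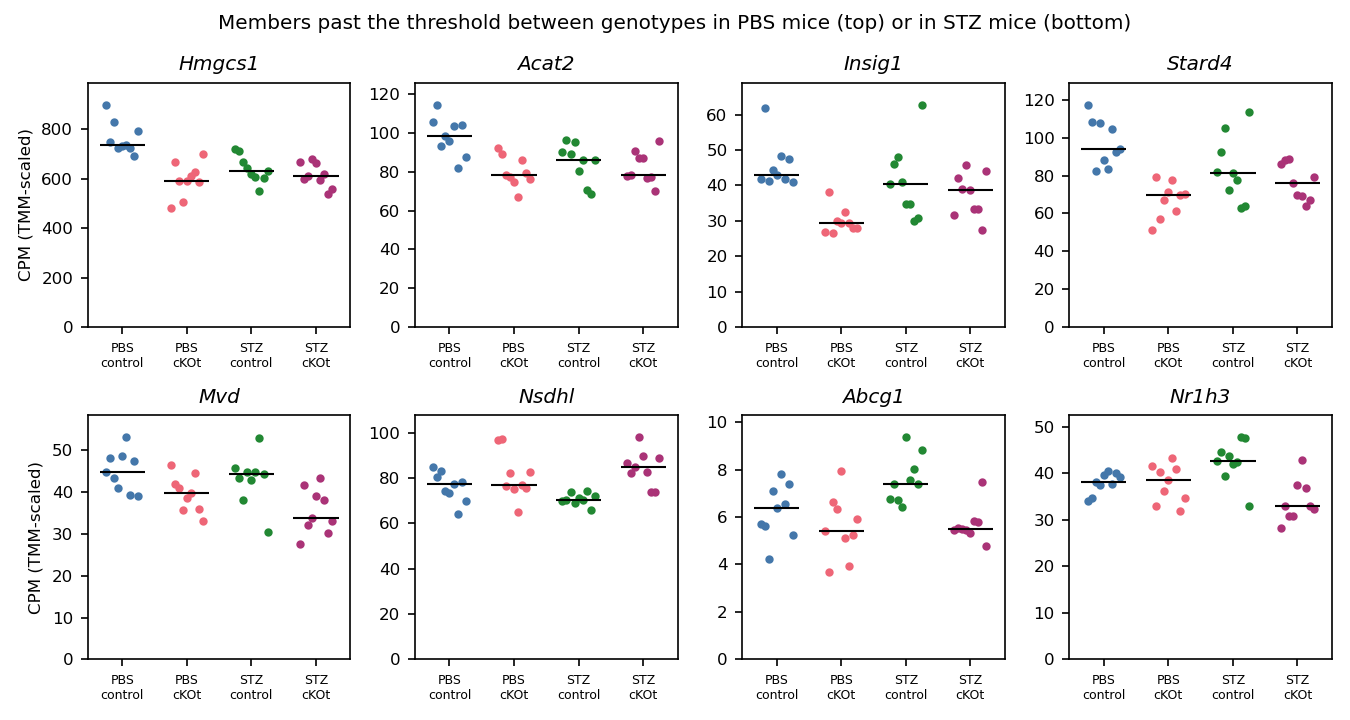
CPM of the 8 members that passed the threshold between genotypes in PBS mice only (top row) or in STZ mice only (bottom row); each point is a library (n = 9 per group), bars are medians and axes start at 0. Insig1 and Stard4 separate the PBS groups fully and overlap in STZ mice; the difference between treatments did not pass a test for any of the 8.

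Whether the genotype difference depended on STZ was tested as an interaction, the knockout effect in STZ mice minus that in PBS mice. Of the members 0 passed in edgeR, DESeq2 or limma, and of all genes 0.0448% passed in edgeR, so the passes in 1 treatment alone do not show that the treatments differ. At an unadjusted p under 0.05 there were 13 members (12.4% of all genes), Acat2, Hmgcs1, Fdft1, Sqle, Lss, Lbr, Msmo1, Sc5d, Insig1, Insig2, Stard4, Soat1 and Nr1h3. The smallest adjusted p was 0.298, for Hmgcs1 (0.30 ± 0.09). Insig1 (0.47 ± 0.16) and Stard4 (0.41 ± 0.14) had the largest values, which became 0.32 and 0.23 without the 4 libraries that stood apart. The median interaction was 0.09 over members and −0.01 over all genes. A shift of the members as a set was not tested.

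The effect of STZ was compared within each genotype. These comparisons use the same libraries as the genotype comparisons, so their values are given beside those and not as separate evidence. In control mice 6 members were lower and 0 higher with STZ, where 12.3% of all genes differed, 6.34% higher and 5.93% lower. Hmgcs1 differed by −0.26 ± 0.06 (adjusted p = 0.00604) and Hsd17b7 by −0.36 ± 0.08 (adjusted p = 0.00156). The others were Cyp51 (305.6 to 254 CPM in medians, −0.30 ± 0.10, adjusted p = 0.0424), Acat2 (−0.21 ± 0.07, adjusted p = 0.0428), Sc5d (−0.21 ± 0.06, adjusted p = 0.02) and Lbr (−0.21 ± 0.06, adjusted p = 0.0163). Without the 4 libraries that stood apart, 2 of the 6 remained, Hmgcs1 (−0.21, adjusted p = 0.0265) and Hsd17b7 (−0.28, adjusted p = 0.000847), and Acat2 went to −0.13. Summed proximal tubule markers ran from 10523 to 12424 CPM in PBS-control and from 8177 to 11134 in STZ-control, and 2 of 8 were lower. Of 6 tested fat markers 4 were lower with STZ (median −2.32), with a summed level of 45.6 to 312 CPM in PBS-control and 41.6 to 74.4 in STZ-control. Of 8 macrophage markers 3 were higher, with sums of 211 to 306 and 228 to 385 CPM. The part of these cell types in the members' values was not tested.

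In cKOt mice 4 members differed with STZ, 2 in each direction, where 11.6% of genes differed, 6.0% higher and 5.63% lower. Sqle was higher by 0.36 ± 0.09 (adjusted p = 0.00679) and Fdft1 by 0.32 ± 0.09 (adjusted p = 0.0172), the latter from 20.6 to 25.7 CPM in PBS-cKOt (median 22.5) to 22.0 to 35.4 in STZ-cKOt (median 27.3). Fdft1 ranged from 21.1 to 32.2 in PBS-control (median 24.4) and from 20.9 to 32.01 in STZ-control (median 24.5), so the groups overlapped. Hsd17b7 (−0.27 ± 0.08, adjusted p = 0.0167) and Soat1 (−0.24 ± 0.05, adjusted p = 0.00214) were lower.

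**Figure D4:**
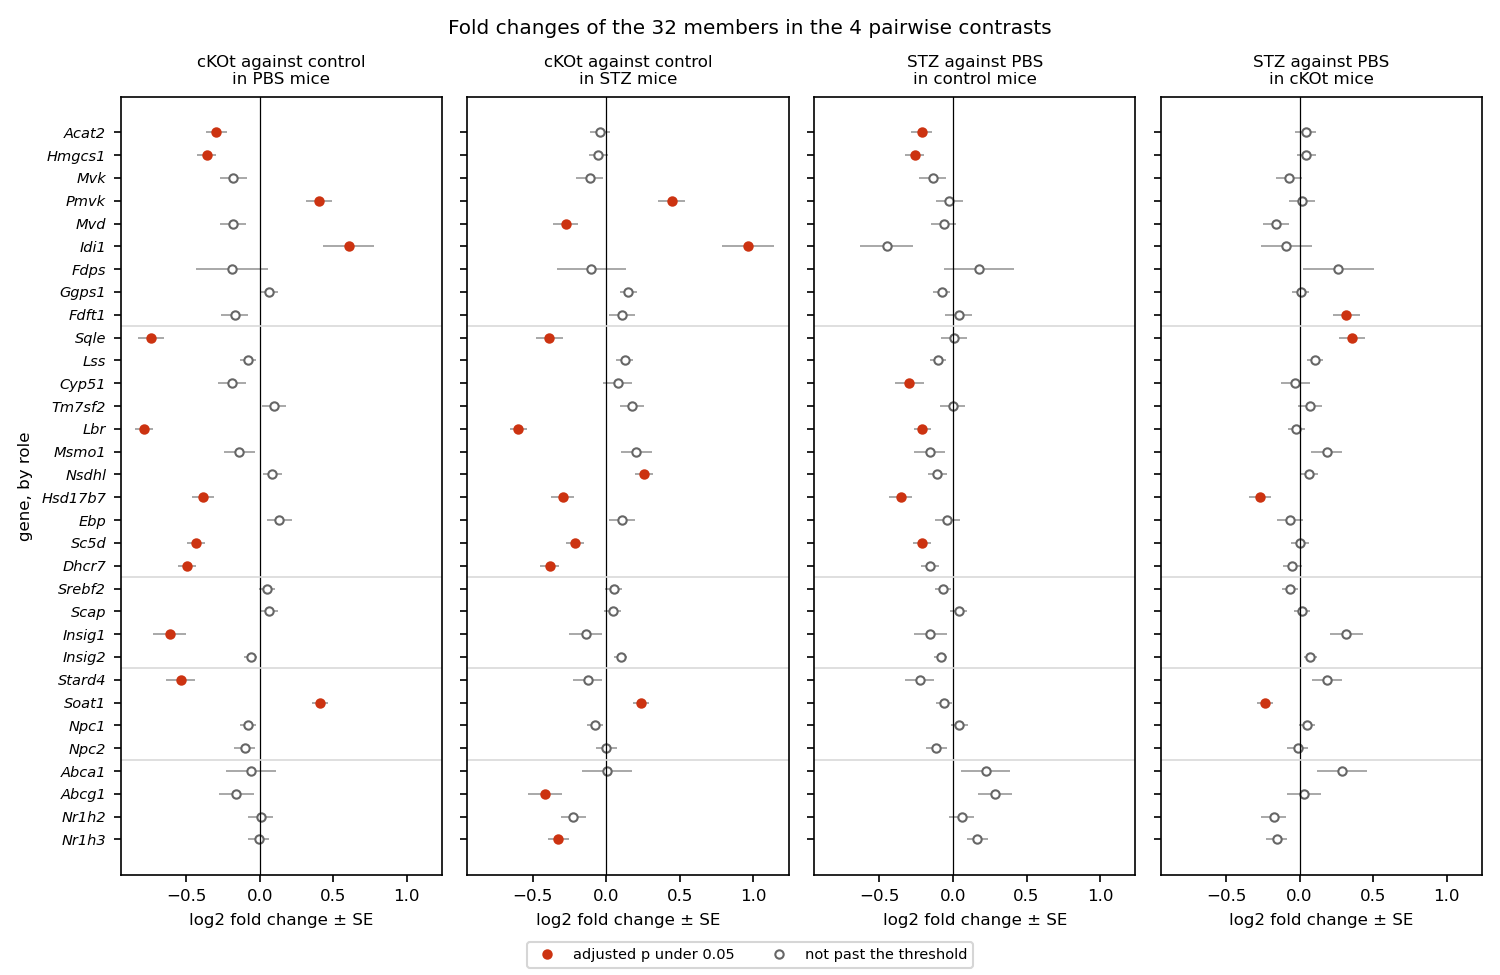
Log2 fold change with its standard error for the 32 members in the 4 pairwise comparisons, ordered by role from early enzymes (top) to efflux (bottom); filled points passed an adjusted p of 0.05 in edgeR. Lbr (−0.79) and Sqle (−0.74) lie farthest to the left in PBS mice and Idi1 (0.96) farthest to the right in STZ mice.

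In all, 18 members passed in at least 1 of the 4 pairwise comparisons. The 14 that passed in none were Mvk, Fdps, Ggps1, Lss, Tm7sf2, Msmo1, Ebp, Srebf2, Scap, Insig2, Npc1, Npc2, Abca1 and Nr1h2, with log2 values between −0.23 and 0.34 over these comparisons and the interaction. Cyp51 was 271 to 441 CPM in PBS-control, 229.9 to 346 in PBS-cKOt, 222 to 314 in STZ-control and 225 to 359 in STZ-cKOt. The coefficient of variation among the 9 libraries of a group had a median of 10.3% over members in PBS-control and reached 52.1% for Fdps in STZ-cKOt. Of the 6 members with an E-box, 4 were lower in PBS-cKOt (Dhcr7, Hsd17b7, Insig1 and Sc5d) and 3 in STZ-cKOt. Of the 26 members with a window, 7 and 6 were lower, and of all tested genes 12.5% and 10.1%. A link between motif and direction was not tested.

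Libraries were also compared within groups, to see which members varied with Hmgcs1 from mouse to mouse. Deviations of log2 CPM from the group mean were correlated over 36 libraries, with permutation within groups and adjustment over 31 relations. Past the threshold were Idi1 (r = 0.68, adjusted permutation p = 0.00031; rho = 0.64, adjusted p = 0.00248), Insig2 (r = 0.55, adjusted permutation p = 0.00496; rho = 0.54, adjusted p = 0.013) and Hsd17b7 (r = 0.56, adjusted permutation p = 0.0198; rho = 0.38, adjusted p = 0.186). Without the 2 libraries farthest from the median of Hmgcs1, PBS-cKOt 1 and 9, r was 0.64, 0.59 and 0.37, and without the 4 libraries that stood apart it was 0.58, 0.52 and 0.31. The relation with Hsd17b7 no longer passed in either case. For Idi1 r was 0.42 within PBS-control, 0.80 within PBS-cKOt, 0.79 within STZ-control and 0.83 within STZ-cKOt, but within single groups 0 relations passed an exact permutation test after adjustment. Abcg1 ran the other way (r = −0.44, adjusted permutation p = 0.0862; rho = −0.52, adjusted p = 0.0239), passing by rank only. Without the 2 farthest libraries, Idi1, Insig2, Cyp51 (r = 0.54) and Abcg1 (r = −0.55) passed. Sqle (r = 0.30), Insig1 (0.27) and Lbr (0.29) did not pass. The libraries share depth and composition effects, which were not removed.

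**Figure D5:**
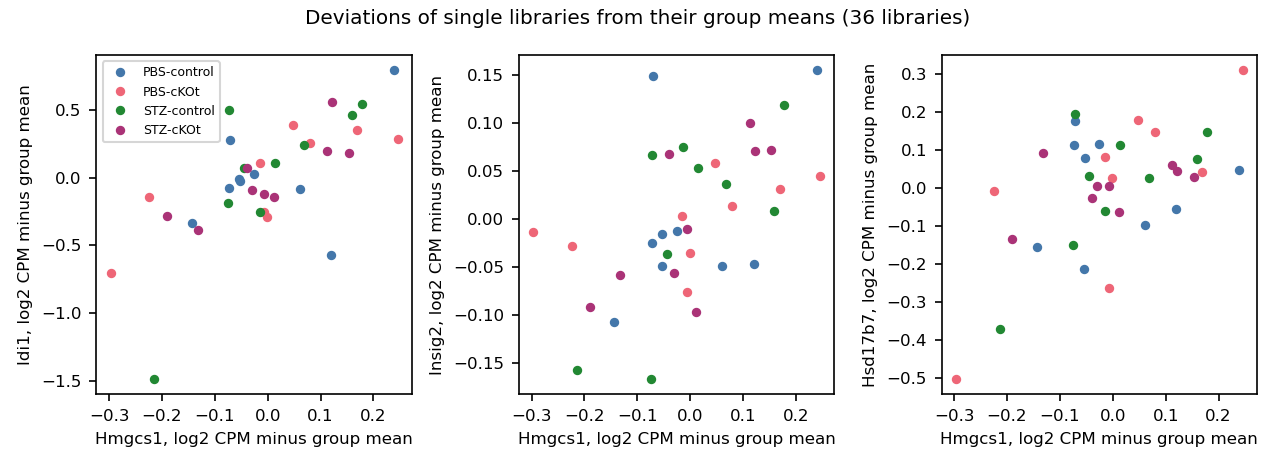
Deviation of each of 36 libraries from its group mean (log2 CPM) for Hmgcs1 on the x axis and Idi1, Insig2 or Hsd17b7 on the y axis; colours mark the 4 groups. Libraries high in Hmgcs1 tend to be high in Idi1 (r = 0.68) and Insig2 (r = 0.55).

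Genes around the pathway were counted from lists written for this description. Of 11 other regulators of synthesis, 4 were lower and 0 higher in PBS-cKOt, and 3 lower and 1 higher in STZ-cKOt. They included Erlin1 (−0.22 and −0.18), the ubiquitin ligase March6, which degrades SQLE (−0.36 ± 0.08, adjusted p = 0.00113, in PBS mice), and Aup1 (−0.26 in STZ mice). Of 12 isoprenoid branch genes, 2 were higher and 2 lower in each comparison. Dhdds, a subunit of the dolichol synthase, was lower (−0.26 and −0.21), Nus1, its partner, was lower in PBS mice (−0.25), Rabggtb was higher in both (0.23 and 0.23), and Pdss2, of ubiquinone synthesis, was higher in STZ mice (0.25).

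Of 20 tested genes of sterol transport, uptake and esters, 6 were lower and 1 higher in PBS-cKOt, and 2 lower and 4 higher in STZ-cKOt. In PBS mice Osbpl2 (−0.18 ± 0.04), the lysosomal lipase Lipa (−0.53 ± 0.13, adjusted p = 0.00163) and the ester hydrolase Nceh1 (−0.28 ± 0.07) led. In STZ mice Osbp (0.19), Abca2 (0.31) and Vldlr (0.21) led. Of 7 genes listed as oxysterol enzymes, Cyp27a1 was lower (−0.33 ± 0.07, adjusted p = 0.000259) and Ebpl higher (0.38 ± 0.11) in PBS mice. In STZ mice the 7 lay between −0.17 and 0.18 and did not pass. Of 11 tested other LXR targets and partners, Lpcat3 was lower in both (−0.24 ± 0.05 and −0.34 ± 0.05, adjusted p = 0.000181 and 7.01e-07) and Rxra in PBS mice (−0.30). Srebf1 was lower (−0.29) and Smpdl3a higher (0.22) in STZ mice. The lists' shares passing in PBS mice ran from 18.2% to 36.4%, beside 23.4% of all genes, and in STZ mice from 0% to 36.4%, beside 19.6%.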

How the data were processed

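Messenger RNA of 36 whole kidneys was measured, 9 per group, with groups taken from the sample titles; each library came from a separate animal. Libraries were made from 500 ng of RNA with TruSeq Stranded mRNA reagents, per the labels' protocols. The deposited files hold raw counts of reads per gene made by the authors. Tools listed in the submitters' processing notes are HTSeq 0.9.1, STAR 2.5.3a and cutadapt 1.8, with the GRCm38 build. Counting options and annotation release are not given in the sources used here. Reads in no gene, in several genes or mapped to several places were left out of library sizes. Symbols came from GENCODE M21.

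Tests used edgeR 4.0.16 (R 4.3.3) on all 36 libraries: filterByExpr, TMM scaling, 1 mean per group, quasi-likelihood F tests with 32 residual degrees of freedom, and Benjamini-Hochberg adjustment over 15637 genes within each comparison. Standard errors come from the F statistic. The fit was tested on simulated data. Permutations numbered 100000. Alternatives were DESeq2 1.42.0, its size factors in edgeR, limma 3.58.1 voom with quality weights, other filters, fits to 2 groups, a replicate block, and leaving out the library labelled STZ-control 2 or the 4 libraries that stood apart. Depth was 16.9 to 22.3 M assigned reads; replicate libraries differed by more than counting noise (chi-square per gene at least 5.73 over 144 pairs). The members and lists were chosen with earlier results of these data known. All members are named, with group ranges for those past the threshold, and up to 3 genes per list and comparison with the smallest adjusted p, except 1 gene of the lists that is not reported here.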

Additional observations from a re-analysis of the deposited data

Results flagged for a closer look

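Each member was examined in each group for a library far from the other 8, by the gap to its neighbour over the group's range, against Dixon's critical value for 9 samples. Of 128 such groups 5 were picked out; chance picks about 1 in 20 groups. Insig1 was 61.9 CPM in PBS-control 2, where the others held 41.0 to 48.4. Abcg1 was 7.48 CPM in STZ-cKOt 8, above the others at 4.79 to 5.83, and this was the library with the highest Abca1 of its group, at 69.1 CPM. PBS-cKOt 1, which stood apart on the second principal component, held the lowest Npc1 of its group (22.9 CPM, others 26.9 to 30.01) and the highest Npc2 (153.8 CPM, others 95.0 to 119.6). Fdps was 2.17 CPM in STZ-cKOt 9, where the others held 0.562 to 0.932, at few reads per library.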

How the results depend on the processing

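Of 306 recomputed values of 34 single-gene results, 291 kept direction and side of the threshold, 15 kept direction but no longer passed, and 0 changed sign. Those lost were Mvd in STZ mice without the 4 libraries that stood apart, and Acat2, Cyp51, Lbr or Sc5d under STZ in control mice. That count of 6 became 2 with no filter on low counts, 2 without the 4 libraries, 3 in a fit to only the 2 groups and 3 with limma voom; the cause was not tested. The other counts stayed within 1.5 times of the main ones: 12 to 15 for genotype in PBS mice, 11 to 13 in STZ mice, 4 to 5 for STZ in cKOt mice, and 0 for the interaction. Without the library labelled STZ-control 2 the counts were 12, 13, 6, 4 and 0. With a replicate block they were 12, 13, 6, 5 and 0, and no call named here was lost. The numbers were not treated as pairs, since same-numbered libraries of other groups had a median correlation of deviations of 0.0227 (54 pairs, lowest −0.247). The 3 relations with Hmgcs1 numbered 0 within PBS-control, 0 within STZ-control, 0 within PBS-cKOt and 0 within STZ-cKOt, where each test has 9 libraries. Values of Fdps are limited by few counted reads, at most 48 per library. The part of its shared windows and overlapping exons in this low count was not tested.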

Other observations

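The 5 lists of genes around the pathway were also counted under STZ. In control mice the shares passing were 27.3% of regulators of synthesis, 8.33% of isoprenoid branch genes, 5% of sterol transport genes, 14.3% of oxysterol enzymes and 27.3% of other LXR genes, beside 12.3% of all genes. The regulators Erlin1 (−0.25 ± 0.05, adjusted p = 0.002 in edgeR), March6 (−0.32 ± 0.08) and Erlin2 (−0.23 ± 0.06) were lower, 3 of 11 in the list. Vldlr (−0.27 ± 0.06, adjusted p = 0.0024), a lipoprotein receptor, and Icmt (−0.20 ± 0.06) were lower as well, as were Rxra (−0.25), Smpdl3a (−0.22) and Lpcat3 (−0.15). In cKOt mice the shares were 18.2%, 16.7%, 5%, 42.9% and 18.2% for the same lists in that order, beside 11.6% of all genes. Of the 7 genes listed as oxysterol enzymes, 3 passed and were higher (6.0% of all genes were). They were Cyp27a1, which makes an oxysterol that activates LXR (0.36 ± 0.07, adjusted p = 0.000302), Ch25h (0.43 ± 0.14, adjusted p = 0.0353) and Cyp39a1 (0.34 ± 0.11, adjusted p = 0.0383). Cyp27a1 was also higher with STZ in control mice (0.20 ± 0.07, adjusted p = 0.0453). Rabggta (−0.42 ± 0.10), Pdss1 (−0.33 ± 0.08), Lpcat3 (−0.24 ± 0.05) and Srebf1 (−0.27 ± 0.08) were lower with STZ in cKOt mice, and Lipa was higher (0.38 ± 0.13, adjusted p = 0.0433).

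Summed over the 11 enzymes from squalene onward, levels were 731 to 938 CPM in PBS-control (median 767), 604 to 774 in PBS-cKOt (median 658), 621 to 776 in STZ-control (median 692) and 586 to 809 in STZ-cKOt (median 696). Cyp51 alone had medians of 305.6, 271, 254 and 283 CPM in that order of groups.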
